A study of Rattus norvegicus with 10 samples.

Results

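The ventral tegmental area (VTA) of cocaine-treated rats was set against the VTA of saline-treated rats. The comparison rests on 2 of the 10 arrays of the series, chosen by their labels, with 1 array a side. The other 8 arrays come from the amygdala, caudate putamen, nucleus accumbens and prefrontal cortex, each again with 1 cocaine and 1 saline array, and serve here to show which genes are regional. Each array measured total RNA of rat brain in a single colour, and its values are expression indices, intensities on a linear scale computed with dChip. Strain, age, dose, route, length of treatment, time of dissection and the pooling of animals are not given in the material used here. With 1 array a side no ratio has a replicate check and no difference was tested, so "higher" and "lower" below describe these 2 arrays only. Treatment, animals, dissection and array cannot be told apart, and in bulk tissue fewer cells of a type and less RNA per cell cannot be told apart either. Precision is limited throughout by how few arrays there are.

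The VTA lies in the ventral midbrain and holds dopamine neurons that project to the nucleus accumbens, prefrontal cortex and amygdala, mixed with GABA neurons that inhibit them and with some glutamate neurons. Dopamine neurons make their transmitter with tyrosine hydroxylase (Th) and aromatic amino acid decarboxylase (Ddc), and take it back up through the dopamine transporter (Slc6a3), which cocaine blocks. The hypothalamus lies in front of the VTA. Its peptide neurons include the orexin (Hcrt) neurons of the lateral hypothalamus, which send axons into the VTA but whose cell bodies lie outside it.

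Promoter sequences are shown for 5 of the genes on which the description turns, since 4 of them, from groups that differed in direction between the VTA arrays, hold the same cyclic AMP response element, and Hcrt, the gene with the lowest ratio, holds none. They come from RefSeq on GRCr8, read 5′ to 3′ on the gene's strand. Each run spans 150 bases and ends at the base before the annotated start, except that of Sst, whose last 10 bases begin at that start. Capitals mark the palindrome TGACGTCA, the binding letters of CREB, or in Hcrt the TATAAA box on the gene's strand.
Scg2, secretogranin II, chr9:88256867-88257016, minus strand: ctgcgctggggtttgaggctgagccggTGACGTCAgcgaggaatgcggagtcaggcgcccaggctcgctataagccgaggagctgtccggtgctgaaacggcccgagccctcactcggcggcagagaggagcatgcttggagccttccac
Cartpt, the precursor of the CART peptide, chr2:32991236-32991385, minus strand: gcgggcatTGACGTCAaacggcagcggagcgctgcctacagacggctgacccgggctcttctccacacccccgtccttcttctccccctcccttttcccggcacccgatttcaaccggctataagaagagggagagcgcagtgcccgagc
Th, tyrosine hydroxylase, chr1:207508219-207508368, minus strand: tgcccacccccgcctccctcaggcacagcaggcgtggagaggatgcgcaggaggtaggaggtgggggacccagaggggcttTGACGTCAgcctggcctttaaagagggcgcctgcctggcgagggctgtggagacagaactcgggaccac
Sst, somatostatin, chr11:90461406-90461555, plus strand: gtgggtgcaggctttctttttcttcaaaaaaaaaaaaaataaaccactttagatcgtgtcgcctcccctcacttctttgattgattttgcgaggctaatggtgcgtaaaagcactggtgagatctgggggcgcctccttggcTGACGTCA
Hcrt, prepro-orexin, chr10:86191525-86191674, minus strand: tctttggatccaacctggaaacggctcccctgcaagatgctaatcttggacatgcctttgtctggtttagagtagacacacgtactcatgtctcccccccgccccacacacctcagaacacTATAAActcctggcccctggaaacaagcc
The element began 123 bases before the annotated start in Scg2, 142 before it in Cartpt and 69 before it in Th. In Sst it began at the 3rd base counted from the annotated start. Where transcription begins in these genes was not tested. Windows of 300 bases around the start held TGACGTCA in 612 of 33469 rat promoters (1.83%) and in 76 of 2819 promoters of genes with a VTA ratio (2.70%). TATAAA on the gene's strand stood in 2945 of the 33469 (8.80%). Among 72 genes with the element, 39 were higher and 33 lower with cocaine, with a median log2 ratio of 0.03. The windows of Gad1, Gad2, Pvalb, Slc32a1, Npy, Resp18, Ddc, Aldh1a1 and Slc6a3 held no TGACGTCA. A match describes letters and is neither a binding site nor a cause.

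The VTA arrays had median indices of 2263 (saline) and 2343 (cocaine). Medians of all 10 arrays ran from 2211 to 2343, and were highest on the VTA cocaine, prefrontal cocaine (2336) and amygdala saline (2320) arrays. The log2 levels of the VTA arrays correlated with r = 0.978 across 5142 probe sets, between the 0.991 of the caudate putamen and the 0.939 of the amygdala. Exact zeros were taken as missing. The saline array held 40 of them and the cocaine array 120, and of the 154 probe sets at 0 on either VTA array, 90 had a median in the other regions above the overall median. Zeros were most numerous on the prefrontal cocaine (226), VTA cocaine (120) and amygdala saline (91) arrays, and the rest held 8 to 42. The median log2 ratio of cocaine over saline was 0.03 with an SD of 0.21 across probe sets.

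A fold of at least 1.5 in either direction, a log2 ratio of 0.58, was reached by 85 of the 5142 probe sets (1.65%). In the VTA 46 were higher with cocaine (0.895%) and 39 lower (0.758%). Other scalings moved this split, to 31 higher and 53 lower with the arrays set to 1 median, 30 and 42 after quantile normalization, and 33 and 47 after a lowess correction of the pair. With 1 probe set a gene, 56 of 3193 genes reached 1.5-fold (1.75%), of which 32 were higher (1.0%) and 24 lower (0.752%). The line cuts through a dense range, with 80 probe sets less than 0.1 below it and 46 less than 0.1 above it.

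**Figure D1:**
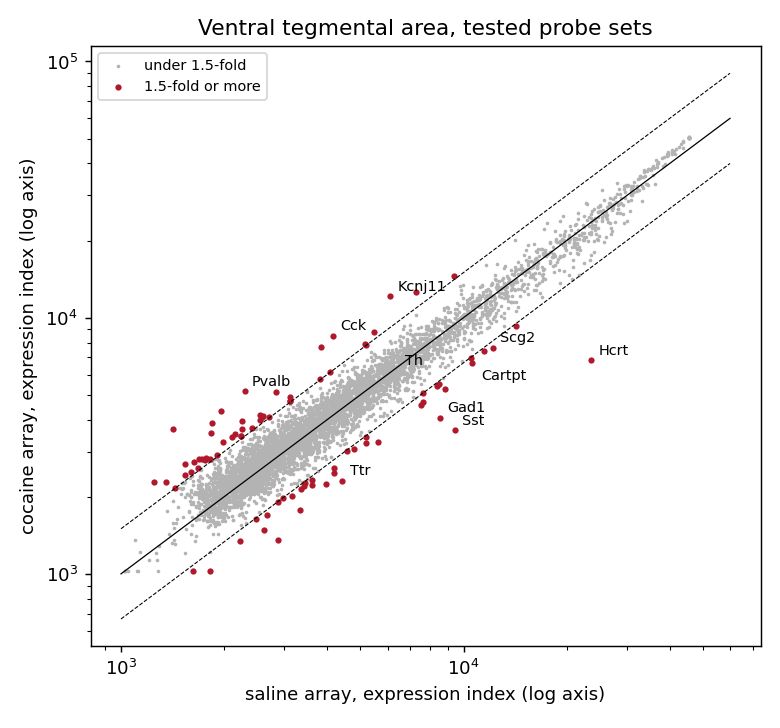
Expression index of each of 5142 probe sets on the VTA saline array (x, log axis) and the VTA cocaine array (y, log axis), with equality as a solid line and 1.5-fold as dashed lines. The 85 probe sets at or past 1.5-fold are red, and Hcrt lies farthest from the diagonal, at 23627 with saline and 6808 with cocaine.

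Dopamine neuron genes were the check of the tissue. Th stood at 6363 on the saline and 7544 on the cocaine array, against 2599, 2705 and 2884 as the lowest, median and highest of the other 8 arrays. Both VTA arrays lay above every other array, and the VTA mean exceeded that of the other regions 2.55-fold. The ratio between the VTA arrays was small beside this excess, a log2 ratio of 0.25.

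Aldh1a1, a retinaldehyde dehydrogenase of dopamine neurons, was at 4477 with saline and 6519 with cocaine, against 1910 to 2669 elsewhere. Ddc was at 3809 and 5296, against 2434 to 3578 elsewhere. Slc6a3 was at 3268 and 4552, against 2977 to 3756 elsewhere. Both VTA arrays lay above all others for Aldh1a1 and Ddc, and only the cocaine array for Slc6a3. The log2 ratios were 0.54 for Aldh1a1, 0.48 for Ddc and 0.48 for Slc6a3. The saline VTA array did not stand out for Slc6a3, whose mean VTA excess was only 1.18-fold, and its second probe set read 2316 with saline and was listed at 0 with cocaine. Slc18a2, which loads monoamines into vesicles, was below the filter on low values. Its brighter probe set stood at 1131 and 1476 in the VTA against 592 to 1086 elsewhere.

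Other genes of these neurons had ratios of both signs. Gch1, which makes the cofactor of Th, had a log2 ratio of 0.37. Ret, the receptor through which GDNF acts, was at 0.34, and Pitx3, a transcription factor of these neurons, at 0.24. Below 0 lay Cplx1, a complexin that controls vesicle release, at -0.22, Chrna6, a nicotinic receptor subunit, at -0.17 and Vat1, a vesicle-associated protein, at -0.13. None of these 6 was VTA-higher, a term used here for a gene whose mean over both VTA arrays exceeded that of the other 4 regions at least 1.5-fold. Of 24 dopamine neuron genes listed, 20 were on the array and 14 had a ratio, 10 above 0 and 4 below, with none past 1.5-fold. Their median was 0.19, against 0.04 over all genes, 58.5% of which were above 0. Of the 3 that were VTA-higher, Th and Aldh1a1 were so on each VTA array, while Ddc was 1.36-fold above the other regions with saline and 1.89-fold with cocaine, so its ratio helped to place it. Sncg, gamma-synuclein, had no ratio, since it read 8005 with saline and was listed at 0 with cocaine. The same list had medians of 0.15 in the prefrontal cortex, -0.19 in the amygdala, -0.05 in the caudate putamen and -0.10 in the accumbens.

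Several genes of hypothalamic peptide neurons, among them those that marked the VTA samples, were lower on the cocaine array. Hcrt read 23627 with saline and 6808 with cocaine, against 2738, 2874 and 3620 as the lowest, median and highest of the other 8 arrays. Both VTA arrays lay above all others, the saline array by far, and the ratio between them was 3.47-fold (log2 ratio -1.80). It was the lowest ratio of any gene tested.

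Scg2, a granin stored in secretory granules, read 12208 with saline and 7641 with cocaine, against 1306 to 4481 elsewhere. Cartpt, the precursor of CART, a peptide of the hypothalamus and also of the accumbens, read 10588 and 6627. The other regions ran from 1446 to 7116 for Cartpt, with the accumbens at 6999 and 7116. Both genes were 1.60-fold lower with cocaine (log2 ratio -0.68 each), and for Cartpt the VTA cocaine array lay below the accumbens arrays while the saline array lay above them. Resp18, a secretory granule protein of neuroendocrine cells, read 29429 and 23452, 1.25-fold lower, and its second probe set 22548 and 16381. Both of its probe sets were 3.67-fold higher in the VTA than elsewhere.

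Of 22 hypothalamic genes listed, 17 were on the array and 13 had a ratio. In the VTA 11 of these were below 0 and 2 above, 4 past 1.5-fold lower and 0 higher, with a median of -0.14, against 41.4% below 0 and 0.752% past 1.5-fold lower over all genes. The summed index of the 13 was 115467 with saline and 76833 with cocaine. This sum is weighted toward the brightest probe sets, among them Hcrt and Resp18, and does not describe each gene of the list. The 4 that were VTA-higher, Hcrt, Scg2, Cartpt and Resp18, were so on each VTA array and were all below 0, with a median of -0.68. The list median was -0.05 with zeros raised to the floor, -0.09 without the filter on low values and -0.27 with the mean of a gene's probe sets. Sst, also on this list but not VTA-higher, was at -1.37 and was among the 4 past 1.5-fold lower. Other genes of the list that were not VTA-higher lay closer to 0. Trh (thyrotropin-releasing hormone) was at -0.14, Pomc at -0.01 and Hdc, the histamine-forming enzyme of the tuberomammillary nucleus, at 0.01. Avp, vasopressin, was at -0.39 with 4678 and 3576, beside 3562 to 4201 elsewhere. Pmch, which marks the melanin-concentrating hormone neurons that lie among the orexin neurons, was listed at 0 on both VTA arrays. Oxt and Gal were listed at 0 with saline and read 5087 and 5719 with cocaine, where other regions had medians of 4899 and 4820. The hypothalamic list had medians between -0.06 and 0.03 in the other 4 regions. How much of the VTA-higher peptide signal came from tissue next to the VTA was not tested.

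Granin and secretory pathway genes other than Scg2 stayed under 1.5-fold. Of 11 genes, 9 were below 0 and 2 above, with a median of -0.16. Scg3, another granin, was at -0.38, and Pam, which amidates peptides, at -0.21. The granule enzymes Cpe and Pcsk2 were at -0.05 and 0.09. The list had medians of -0.27 in prefrontal cortex and 0.12 in amygdala.

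Genes of GABA neurons went in both directions. Gad1, the larger glutamate decarboxylase, read 8527 with saline and 4065 with cocaine, against 4245, 9488 and 17435 as the lowest, median and highest elsewhere. The saline array lay inside the range of the other regions and the cocaine array just below it, a 2.10-fold difference (log2 ratio -1.07). Gad2, the smaller decarboxylase, read 3106 and 4906, 1.58-fold higher with cocaine (log2 ratio 0.66). The saline array was lower than all others for Gad2 and the cocaine array lay within the range of 3113 to 5841. Slc32a1, the vesicular GABA transporter, read 5198 and 3249, 1.60-fold lower, while its fainter probe set, below the filter, read 1327 and 1547. Of these 3 genes of GABA synthesis and packaging, Gad1 and Slc32a1 were thus lower and Gad2 higher on the cocaine array.

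Sst, a peptide of a class of GABA neurons and of hypothalamic neurons, read 9413 with saline and 3638 with cocaine, against 6981, 9717 and 13294 elsewhere. The saline array lay inside that range and the cocaine array was the lowest of the 10, 2.59-fold below its partner. The second probe set gave 8361 and 5414, 1.54-fold lower. Npy, a peptide often found with somatostatin, read 3256 and 2244, against 4431 to 5834 elsewhere, so that both VTA arrays were below all others and the cocaine array lower still (log2 ratio -0.54). Calb1, calbindin, read 8698 and 5811, just short of 1.5-fold lower, and was VTA-higher by 1.57-fold. Calb2, calretinin, was VTA-higher by 4.67-fold, the largest excess of any gene, and read 12132 and 13498 (log2 ratio 0.15). These calcium-binding genes of the GABA neuron list thus had ratios of opposite sign. Calb2 was also listed for subcortical excitatory neurons, and which cells held either gene was not tested. Calb1 was 1.92-fold above the other regions with saline but 1.28-fold with cocaine.

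Pvalb, parvalbumin of fast-spiking neurons, read 2298 with saline and 5166 with cocaine. The lowest, median and highest of the other arrays were 2464, 2682 and 6775. The saline array was the lowest of all 10, and the cocaine array lay below the prefrontal arrays (6775 and 6311) and above the other 6, a 2.25-fold difference. In each of the other regions the Pvalb ratio lay between -0.10 and 0.18 on the log2 scale. Of the 14 GABA neuron genes with a ratio, 6 were above 0 and 8 below, 2 past 1.5-fold higher (Pvalb, Gad2) and 4 lower (Sst, Gad1, Slc32a1 and the serotonin receptor Htr3a), with a median of -0.13. Over all genes 41.4% were below 0, 1.0% were past 1.5-fold higher and 0.752% past it lower. The median of the GABA neuron list was -0.02 without the filter on low values and -0.06 with the mean of a gene's probe sets. It was 0.25 in the amygdala, -0.19 in the prefrontal cortex, 0.01 in the caudate putamen and -0.04 in the accumbens. In 11 of the 14 genes the prefrontal ratio had the sign of the VTA ratio and the amygdala ratio the opposite sign, as in 56.4% of all probe sets. Sst, Gad1, Slc32a1, Htr3a and Gad2 were among them and Pvalb was not.

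Other genes of large fast-firing neurons gave smaller ratios than Pvalb. The neurofilament subunits Nefl, Nefm and Nefh, which set the calibre of large axons, had log2 ratios of 0.49, 0.53 and 0.20. Nefl read 7283 with saline and 10239 with cocaine, Nefm 4732 and 6840, and Nefh 3235 and 3716, while a second Nefh probe set had a log2 ratio of 0.62. For Nefm the other regions ran from 3959 to 7511, and both VTA arrays lay within that range. The potassium channels Kcnc1 and Kcna1 were at -0.17 and -0.02. Of 11 genes in the list, 7 were above 0 and 4 below, with a median of 0.02 that turned to -0.03 with the arrays set to 1 median.

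Cck, cholecystokinin, is made by cortical neurons and by many dopamine neurons of the ventral midbrain. It read 4161 with saline and 8504 with cocaine, against 5707, 14773 and 28113 elsewhere. The saline array was the lowest of all 10, and the cocaine array lay above both caudate putamen arrays (5707 and 7238) and below the other 6. The difference was 2.04-fold (log2 ratio 1.03), and in the VTA Cck was the only gene past 1.5-fold higher among those classed as VTA-lower, at least 1.5-fold below the mean of the other regions. Of 9 cortical and hippocampal excitatory genes with a ratio, 6 were above 0, with a median of 0.14. Striatal projection neuron genes, 8 of 13 of them VTA-lower, had a median of 0.07 and none past 1.5-fold.

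Myelin genes of oligodendrocytes had small ratios. Of 14, 11 were above 0, with a median of 0.15 and a range of -0.29 to 0.31, and none was past 1.5-fold. Over all genes 58.5% were above 0, and of 24 genes of other organs, listed as a control, 19 were. Mobp, a structural protein of compact myelin, read 25424 and 31410, and its other 3 probe sets had log2 ratios of 0.42, 0.46 and 0.16. Qdpr, which regenerates the cofactor of Th and is abundant in oligodendrocytes, read 11196 and 13176 (log2 ratio 0.23). Of the 6 myelin genes that were VTA-higher, 5 were above 0 and Ugt8, which makes galactolipids of myelin, was at -0.24. Only Ugt8 and Qdpr, of opposite sign, were VTA-higher on each VTA array. Mobp, Cryab, Cnp and Enpp2 fell short of 1.5-fold on the saline array alone, so their ratios helped to place them. Summed over the list, the index was 161612 with saline and 179118 with cocaine, a sum weighted toward the brightest probe sets. The other regions had list medians between -0.13 and -0.02.

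Other non-neuronal classes had list medians closer to 0 than the myelin list, though single genes, Vwf and Ttr, were past 1.5-fold. The medians were 0.03 for 15 astrocyte genes, which turned to -0.02 with the arrays set to 1 median and -0.03 after quantile normalization, and -0.05 for 13 microglial and immune genes. The median was 0.12 for 13 endothelial, mural and blood cell genes, 12 of them above 0, and Vwf, von Willebrand factor, was past 1.5-fold higher. Of 13 choroid plexus, ependymal and meningeal genes 8 were above 0, with a median of 0.05. Ttr, transthyretin of the choroid plexus, read 4431 with saline and 2310 with cocaine, 1.92-fold lower. The other regions ran from 1692 to 41154 for Ttr, so that both VTA arrays were far below the amygdala and caudate putamen arrays.

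**Figure D2:**
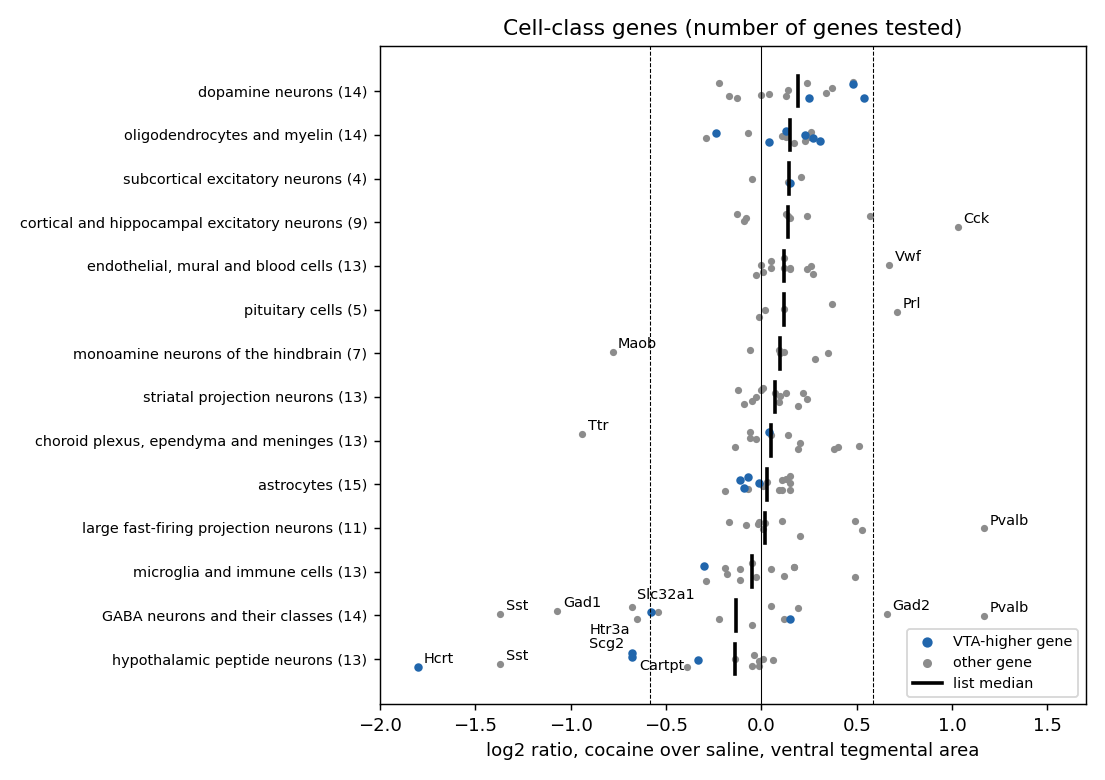
Log2 ratio of cocaine over saline in the VTA (x) for the tested genes of 14 cell-class lists, with blue points for VTA-higher genes, grey points for the rest, black bars for list medians and dashed lines at 1.5-fold. Dopamine neuron genes have the highest median, 0.19, and hypothalamic peptide genes the lowest, -0.14.

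The ratios were then read by regional excess, the mean log2 level of both VTA arrays minus the mean of the other 4 regions. Each VTA array enters the excess, so a gene that is far from its level elsewhere on only 1 of the VTA arrays can be placed in a class by its ratio. The classes were therefore also read with the condition that each VTA array alone be 1.5-fold from the mean of the other 4 regions, an alternative added after the data were seen. Of the 97 VTA-higher genes, 37 were above 0 and 60 below, with a median of -0.07 and quartiles of -0.18 and 0.06. That median was -0.16 with classes from the saline arrays and turned to 0.04 with classes from the cocaine arrays and 0.04 after the prefrontal and amygdala fit given further on, so no direction is given for this class. By each VTA array alone 63 VTA-higher genes were left, 25 above 0 and 38 below, with a median of -0.03. Of the 67 VTA-lower genes, 19 were above 0 and 47 below, with a median of -0.12, and by each VTA array alone 52 were left with a median of -0.09. The 3027 genes at similar levels had a median of 0.04. The correlation of ratio with excess across 3191 genes was -0.029, a description over genes that share these arrays and are not independent replicates.

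Past 1.5-fold, the VTA-higher class had 0 higher and 4 lower genes (4.12%, against 0.752% of all genes), namely Hcrt, Scg2, Cartpt and Idh1, a cytosolic dehydrogenase that yields NADPH. Idh1 read 4803 with saline and 3068 with cocaine, against 1655 to 2925 elsewhere, and its excess was 1.98-fold on the saline array but 1.27-fold on the cocaine array. By each VTA array alone the class held 0 higher and 3 lower, without Idh1. With classes from the cocaine arrays it held 6 higher and 3 lower. Counted by probe set, the VTA-higher class held 1 higher and 5 lower of 194 (0.515% and 2.58%, against 0.895% and 0.758% of all probe sets). The class of similar genes had 31 higher (1.02%) and 14 lower (0.463%). The VTA-lower class had 1 higher, Cck, and 6 lower (8.96%), namely Sst, Gad1, Ttr, Cnr1, Plcb1 and Gda. The low cocaine array alone put Sst, Gad1 and Plcb1 in this class, since their saline arrays lay 1.03-fold, 1.05-fold and 1.25-fold below the other regions. By each VTA array alone the class held Cck as 1 higher and Ttr, Cnr1 and Gda as 3 lower. Counted by probe set, the VTA-lower class held 2 higher and 8 lower of 118 (1.69% and 6.78%). Cnr1, a cannabinoid receptor of axon terminals, read 1820 and 927, with the second value under the floor of 1028. Plcb1, a phospholipase coupled to Gq, was at -0.73. Gda, guanine deaminase, read 7612 and 5071, and its second probe set 3963 and 2244.

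Genes that were VTA-higher on each array had ratios of both signs. In order of the ratios of the 97, Hcrt, Scg2 and Cartpt were lowest and Resp18 was 11 from the bottom, while from the top Aldh1a1 was 1, Th 8 and Qdpr 10. The other VTA-higher myelin genes were spread over this order, with Mobp 6, Cryab 7, Cnp 18 and Enpp2 29 from the top and Ugt8 17 from the bottom. Of the myelin genes only Qdpr and Ugt8 held the class on each VTA array. The genes with the largest excess after Calb2, which were Hcrt, Scg2, Resp18 and Cartpt, all lay below 0. Others of large excess lay near 0: Agt, angiotensinogen of astrocytes, read 23769 and 22323, Itih3, an inter-alpha-trypsin inhibitor chain, 19650 and 20806, and Nnat, neuronatin, 35860 and 36142. Gpx3, the secreted glutathione peroxidase, read 15458 and 12423 (log2 ratio -0.32). How far the tissue taken or a response to cocaine set these ratios was not tested.

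**Figure D3:**
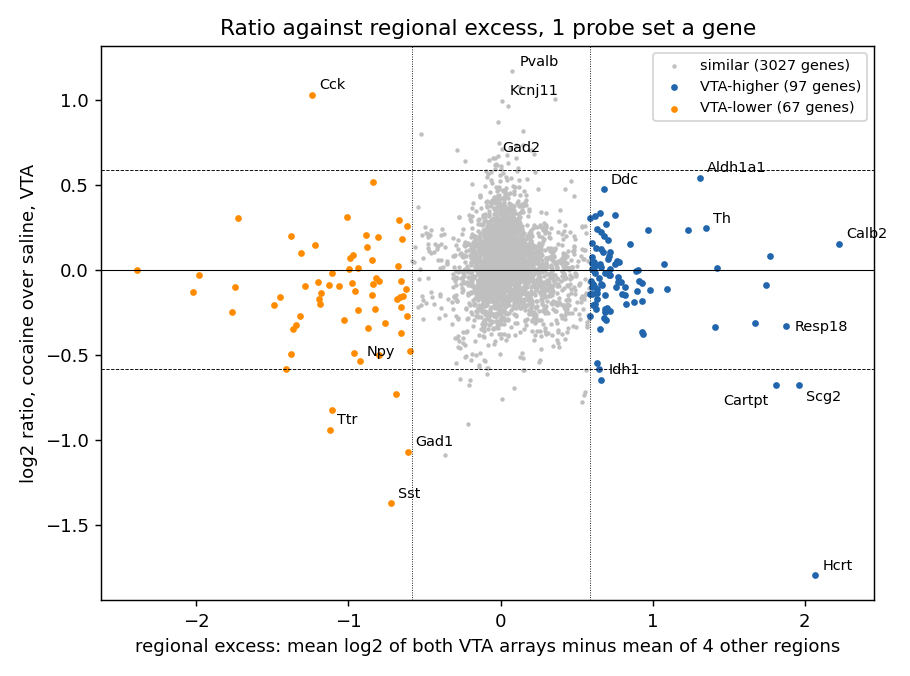
Log2 ratio of cocaine over saline in the VTA (y) against regional excess in log2 (x) for genes with 1 probe set each, blue for 97 VTA-higher, orange for 67 VTA-lower and grey for 3027 similar genes, with lines at 1.5-fold. Among the blue genes Hcrt, Scg2 and Cartpt lie at the bottom and Aldh1a1 at the top.

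The VTA ratios were set beside those of the other regions, which share no arrays with it. Across probe sets the VTA log2 ratio correlated with that of the prefrontal cortex at r = 0.575 (4973 probe sets) and of the amygdala at r = -0.588 (5059). With the caudate putamen and accumbens r was -0.101 and -0.198. The probe sets of an array share its hybridization and scaling, and these values are descriptions. By these signs the VTA cocaine, prefrontal cocaine and amygdala saline arrays go together, and they also held the most zeros and the highest median indices. Whether this array trait bears on the shared ratios was not tested. The SD of the log2 ratios was 0.29 in prefrontal cortex and 0.33 in amygdala, wider than the 0.21 of the VTA, and 0.13 and 0.15 in the caudate putamen and accumbens.

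Most genes far from 0 in the VTA followed this pattern. Of 46 probe sets past 1.5-fold higher, 42 were also above 0 in prefrontal cortex and below 0 in amygdala (91.3%), and of 38 past 1.5-fold lower with all values, 33 had the reverse signs (86.8%). Over all probe sets the share was 2772 of 4917 (56.4%). Kcnj11, the pore of a potassium channel that ATP closes, is an example. It read 6105 with saline and 12160 with cocaine in the VTA, 7269 and 21898 in the prefrontal cortex, and 13907 and 5410 in the amygdala. The second Kcnj11 probe set read 4776 and 4323 in the VTA, 1.10-fold lower, so the probe sets of this gene disagreed in sign.

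Tpcn1, a channel of endolysosomes, and Wdr62, a centrosomal protein, had the same pattern. Their log2 ratios were 1.08 and 0.96 in the VTA, 1.56 and 1.52 in the prefrontal cortex, and -1.57 and -1.64 in the amygdala. Wdr62 had a second probe set at -0.10 in the VTA. A fainter probe set of Defb1, a beta-defensin, was at 1.14 in the VTA, 1.54 in prefrontal cortex and -1.72 in amygdala, while its brighter one was at 0.08 in the VTA. Of the 32 genes past 1.5-fold higher, 9 had several tested probe sets, and for 7 of the 9 another probe set had the opposite sign and for none did all pass 1.5-fold. Of the 24 genes past 1.5-fold lower, 5 had several, all past 1.5-fold in 2 and of opposite sign in 1. Among the lower genes, Maob, which breaks down dopamine, read 5638 and 3284 (log2 ratio -0.78), with 0.56 in the amygdala and -0.31 in the prefrontal cortex.

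The pattern did not hold for 6 of the 55 genes past 1.5-fold with all values, which were Pvalb and Cck among the higher and Hcrt, Cartpt, Ttr and Gda among the lower. Hcrt was at 0.34 in prefrontal cortex and -0.35 in amygdala, opposite to the sign pattern. Cck was at -0.02 in prefrontal cortex and -0.16 in amygdala, where it read between 18366 and 28113 on all 4 arrays. When the linear fit of the VTA ratios on the prefrontal and amygdala ratios was taken off, an alternative chosen after the data were seen, Hcrt stood at -1.96, Sst at -1.25, Gad1 at -0.88, Pvalb at 1.24 and Cck at 1.0. By the same measure Kcnj11 stood at 0.28, Tpcn1 at 0.32, Wdr62 at 0.20 and Gad2 at 0.28. For the dopamine genes it left Aldh1a1 at 0.72, Slc6a3 at 0.37, Ddc at 0.25 and Th at 0.18, and the dopamine list median at 0.01. The counts past 1.5-fold became 15 higher and 10 lower probe sets. The part that the shared pattern plays in these ratios was not tested beyond this.

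**Figure D4:**
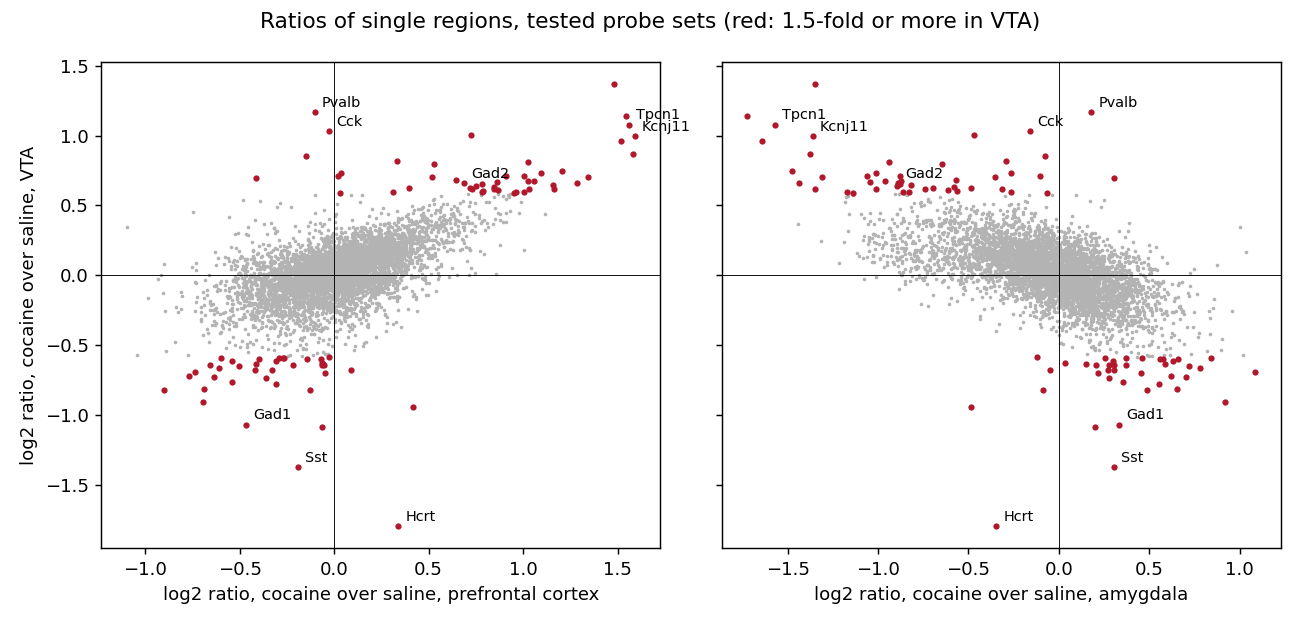
VTA log2 ratio of cocaine over saline (y) against the same ratio in the prefrontal cortex (x, left) and the amygdala (x, right), 1 point per tested probe set, red where the VTA ratio is at or past 1.5-fold. The cloud runs upward on the left (r = 0.575) and downward on the right (r = -0.588), and Pvalb, Cck and Hcrt lie off both.

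**Figure D5:**
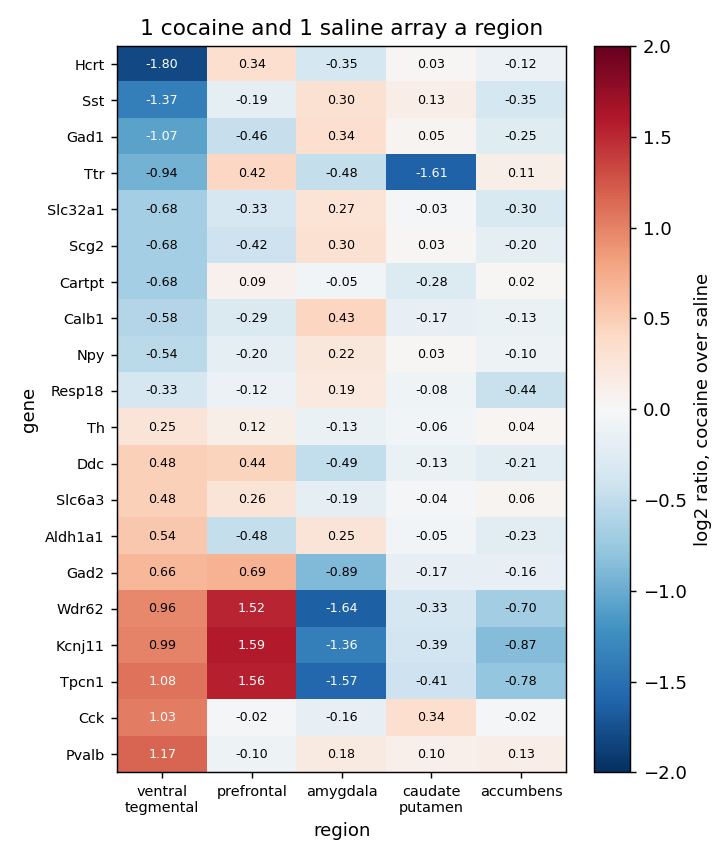
Log2 ratio of cocaine over saline for 20 genes (rows) in the 5 regions (columns), 1 array a side, with red for higher and blue for lower with cocaine. Wdr62, Kcnj11 and Tpcn1 have large ratios of opposite sign in the prefrontal cortex and amygdala, while the largest values of Hcrt, Pvalb and Cck are those of the VTA.

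Immediate early genes, which neurons transcribe within minutes of activity, were mostly slightly higher with cocaine in the VTA. Of 14 with a ratio, 12 were above 0 and 2 below, with a median of 0.15 and none past 1.5-fold. Over all genes 58.5% were above 0, as were 19 of the 24 control genes of other organs. Fos read 8214 with saline and 9656 with cocaine (log2 ratio 0.23), and its other probe sets gave 0.23 and 0.21. Junb was at 0.36 and Arc at 0.16. Egr1 was at -0.16 with its other 3 probe sets at 0.31, -0.13 and -0.05, and Homer1 at 0.10. The list had medians of 0.20 in prefrontal cortex and -0.29 in amygdala, and 10 of the 13 genes with all values had the sign pattern of the prefrontal cortex and amygdala. After the linear fit was taken off, its VTA median was 0.05.

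Genes often studied in the VTA after drug exposure were listed beside these. Of 22 with a ratio, 14 were above 0 and 8 below, with a median of 0.11, and Gad1 alone was past 1.5-fold. The neurofilaments Nefm and Nefl, Slc6a3 and Gdnf (0.47) were highest. Gria1, an AMPA receptor subunit, was at -0.27, Creb1 at 0.18 and Bdnf at 0.11.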

How the data were processed

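RNA of rat brain was hybridized to 10 single-colour arrays, 1 cocaine and 1 saline array in each of 5 regions, and groups were taken from the sample labels. The authors deposited intensities, linear expression indices from dChip, per the labels. Neither the version and model of dChip nor the scaling of arrays was given in the sources used here. Scaling by the authors sets the zero of every ratio, and model-based indices of faint probe sets can be 0 or noisy.

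Of 8799 probe sets, 59 controls were left out. Of the other 8740, the platform annotation gave 1 symbol for 7006, several for 308 and none for 1426, and the 6985 symbols found by gene ID in the current rat table stood unchanged. Zeros were missing values. Values under the 20th percentile of those above 0 (1028) were set to that index, log2 was taken, and the upper 60% of probe sets by mean index (5244) were kept. Of these, 5142 had a VTA ratio, in 3193 genes, each represented by its most abundant probe set. No further normalization was applied. Computation used Python 3.11.15 with pandas 2.3.3, numpy 2.4.6 and statsmodels 0.14.6, and the ratio calculation was tested on simulated data. No test between arrays was run.

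The members, gene lists and rules were chosen with earlier results of these data known. Named genes were the 15 highest and 15 lowest ratios among genes whose VTA values both exceeded the floor and of which at least 1 reached the median index (2270), Pvalb, Cck, Hcrt, Sst and Gad1, up to 4 genes of the largest ratio from each of 30 lists, the 10 genes of largest regional excess, VTA-higher genes past 1.5-fold, dopamine genes and 5 immediate early genes. Other members of a list stand beside them for contrast, and Gad2, Calb1, Npy, Avp, Ret, Cnr1, Plcb1, Gda, Qdpr and Defb1 were chosen after their values were seen. Alternatives changed the scaling, zeros, floor, filter, fold threshold, definition of the regional class and the probe set of a gene. A probe set value is not comparable between probe sets of different genes, so levels were compared between arrays only.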

Additional observations from a re-analysis of the deposited data

Results flagged for a closer look

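The named genes below were past 1.5-fold in the VTA and past 1.5-fold the other way in another region. Each region has 1 array a side, and none of these differences was tested.

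Kcnj11, higher in the VTA, had a log2 ratio of -1.36 in the amygdala and -0.87 in the accumbens. Tpcn1 was at -1.57 and -0.78 there, Wdr62 at -1.64 and -0.70, and Cdk2, a cell cycle kinase, at -1.38 and -0.68. Pparg, a nuclear receptor of lipid metabolism, stood at -1.48 in the amygdala. The pituitary hormone gene Prl was at -1.06, Ggt1, which splits glutathione, at -1.01, RT1-DMb, which loads class II antigens, at -0.88, and the chemokine Cx3cl1 at -0.64. Among genes lower in the VTA, Matr3, a nuclear matrix protein, was at 0.92 in the amygdala, Idh1 at 0.72 and Gng5, a G protein subunit, at 0.62.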

How the results depend on the processing

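No paired analysis was possible because each group had 1 array and the results come from no test. Beside the 46 higher and 39 lower probe sets, the higher count was 30 after quantile normalization and 76 without the filter on low values. Zeros raised to the floor gave 73 and 106, a 2-fold threshold 6 and 4, and taking off the prefrontal and amygdala fit 15 and 10. Among VTA-higher genes the 4 lower were 8 with classes from saline arrays, 2 against every other region and 2 after the fit, and the 0 higher were 6 with classes from cocaine arrays and 1 after the fit. Classes from the arrays of 1 treatment tie class to ratio by construction. Among VTA-lower genes the 1 higher was 2 after quantile normalization, 16 with zeros at the floor, 4 with classes from saline arrays, 0 against every other region and 0 without amygdala and prefrontal arrays. The 6 lower were 38 with zeros at the floor and 3 each with classes from saline arrays, at 2-fold, against every other region or by each VTA array alone. Among VTA-higher members alone, the dopamine median was 0.48 and the hypothalamic median -0.68, against 0.19 and -0.14. The VTA-higher median of -0.07 turned to 0.04 with classes from cocaine arrays and 0.04 after the fit. Otherwise the cause was not tested. Of 36 named genes past 1.5-fold none changed sign, and at least 35 were past it under each scaling, floor and filter tried. After the fit 13 of 35 were. These genes were taken past that line on the same pair of arrays, so their stability is no replicate check. The number of arrays limits all values, and indices near the floor of 1028 (Cnr1) give only a bound.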

Other observations

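Several pathways lay near 0 in the VTA or differed from all genes (median log2 ratio 0.04) by small amounts. Of 37 ribosomal protein genes, 31 were below 0 and 6 above, with a median of -0.11 in the VTA and -0.26 in the prefrontal cortex, and none was past 1.5-fold. Rpl39 and Rpl35a were lowest, both at -0.49. Of 53 genes of oxidative phosphorylation, which makes ATP in mitochondria, 35 were above 0, with a median of 0.05. Of 30 neurotrophic factors and receptors, 24 were above 0, with a median of 0.12, and Igfbp2, which binds insulin-like growth factors, was highest at 0.51. The neurotrophic list had medians of 0.17 in prefrontal cortex and -0.18 in amygdala.

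Of 18 glutamate receptor genes, 12 were below 0 and 6 above, with a median of -0.08, and Grm7, a presynaptic metabotropic receptor, was lowest at -0.49. Of 15 GABA receptor and transporter genes 9 were above 0, with a median of 0.05. Synaptic vesicle genes were 11 above and 14 below 0, with Snap25, which drives vesicle fusion, at 0.32 and Syn1, which tethers vesicles, at -0.36. Of 24 ion channel genes, 14 were above 0, with a median of 0.04 that turned to -0.01 with the arrays set to 1 median, and Kcnj11 alone was past 1.5-fold. Heat shock and unfolded protein genes had a median of -0.01, kinase and cyclic AMP genes 0.02 and cytoskeleton genes 0.03. The last 2 turned to -0.03 and -0.02 with the arrays set to 1 median.

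Genes of other organs, 24 of which had a ratio, were 19 above and 5 below 0 with a median of 0.08, and 0.18 in prefrontal cortex and -0.09 in amygdala. Of 5 pituitary genes 4 were above 0, with a median of 0.12. Of 7 hindbrain monoamine genes 5 were above 0, with a median of 0.10, and of 4 subcortical excitatory genes 3 were, with a median of 0.15.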
